A study of Homo sapiens with 12 samples.

Results

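The genes described here encode the proteins of the cytosolic ribosome, the particle that translates messenger RNA in the cytoplasm. They were chosen by name from the table's 23398 gene entries: symbols of the form RPL or RPS with a number, together with RPLP0, RPLP1, RPLP2 and RPSA, and without pseudogenes. This gave 85 genes, 52 of the large subunit and 33 of the small subunit, of which 81 had enough counts to be tested (50 large, 31 small). Expression was measured by RNA sequencing in human brain microvascular endothelial cells (HBMEC), the lining cells of small brain vessels, bought from a commercial supplier and grown in its medium. All groups received siRNA by transfection and were left for 48 hours, with either a non-silencing siRNA or siGlut1, an siRNA against the glucose transporter Glut1 (gene SLC2A1). Medium was either the control or high glucose, at a concentration that the labels leave out. The 4 groups of 3 samples were therefore non-silencing control, siGlut1 control, non-silencing high glucose and siGlut1 high glucose. Each group was compared with 1 that differed in the siRNA or in the glucose. The labels do not say whether replicates came from separate cultures or donors. The p-values therefore weigh a difference only against the spread of these samples, and that spread may be technical.

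A ribosome holds 1 copy of most of these proteins, and cells make them in balanced amounts. Their messenger RNAs are among the most abundant in a growing cell, are short, and mostly begin with a C followed by a run of pyrimidines, the 5′ terminal oligopyrimidine (TOP) tract, through which mTORC1 and the binding protein LARP1 control their translation and stability. The proteins P0, P1 and P2 (RPLP0, RPLP1, RPLP2) form the stalk that recruits elongation factors. RPL5 and RPL11 form a particle with 5S ribosomal RNA that can bind MDM2, the ligase that degrades p53. RPL4 lines the tunnel through which the new protein leaves and RPL17 sits at its mouth, and RPL7L1, RPL22L1, RPL26L1, RPL39L and RPS27L are paralogues of the standard proteins.

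The start of the transcript is the sequence these genes share most plainly, and it was not used to choose them. Of the 85 genes, 67 had an annotated start in the RefSeq table (GRCh38.p14). A C followed by at least 4 bases of C or T, beginning within 2 bases of a start on the coding strand, was found in 51 of the 67 (76.1%), against 13.0% of 27305 genes in that table and 1566 of 9803 tested genes outside the set. The sequences below run from 15 bases before the annotated start through 15 bases from it, 5′ to 3′ on the coding strand, with the tract in capitals. They are shown for the stalk proteins and RPS6, which carry a long tract, and for 2 genes called below, RPL4 and RPL17. These 2 had no such run beginning within 2 bases of the annotated start. Their windows do hold a run of C and T outside that limit, after the start in RPL4 and before it in RPL17. Whether transcripts begin at those runs was not tested.
RPLP0, chr12:120201097-120201126, minus strand: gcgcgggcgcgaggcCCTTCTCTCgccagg
RPLP1, chr15:69452803-69452832, plus strand: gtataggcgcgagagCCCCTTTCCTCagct
RPLP2, chr11:809952-809981, plus strand: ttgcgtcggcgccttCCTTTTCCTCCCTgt
RPS6, chr9:19380222-19380251, minus strand: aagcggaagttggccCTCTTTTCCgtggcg
RPL4, chr15:66504841-66504870, minus strand: tacagcgggagtggtaagcacttccttttc
RPL17, chr18:49492451-49492480, minus strand: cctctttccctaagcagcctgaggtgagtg
The tract was 9 bases long in RPLP0, 11 in RPLP1, 13 in RPLP2 and 9 in RPS6. Among the paralogues, RPL22L1 carried a tract of 6 bases, and RPL7L1, RPL26L1 and RPS27L had none at their annotated starts. A match is a description of these letters in this window, and no match says nothing about control of the gene.

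The deposited columns hold between 40135082 and 90536476 counts, with a median of 49686182. The column for non-silencing high glucose replicate 2 equalled the mean of replicates 1 and 3 in 23397 of 23398 entries, and in 85 of the 85 ribosomal protein genes, so it was left out and that group has n = 2. SLC2A1, the targeted gene, stood at 25.7, 23.7 and 22.2 CPM (counts scaled to the library total) in non-silencing control and at 8.56, 9.05 and 6.26 in siGlut1 control. In high glucose it stood at 21.2 and 20.7 with the non-silencing siRNA and at 7.09, 7.19 and 6.38 with siGlut1. Each of the 10 endothelial markers examined was expressed in each library (PECAM1 at 776 to 1051 CPM), while 5 of 8 pericyte and smooth muscle, 5 of 6 leukocyte and 5 of 6 astrocyte and neuron markers stayed under 1 CPM in each library. The markers above that line included RGS5 at 1491 to 2421 CPM, and the summed pericyte and smooth muscle markers ranged from 1844 to 2169 CPM in non-silencing control, 1514 to 1622 in siGlut1 control, 2378 to 2442 in non-silencing high glucose and 1703 to 2043 in siGlut1 high glucose. Their part in the results was not tested, and in bulk RNA fewer cells of a type and less RNA per cell cannot be told apart.

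Ribosomal protein genes were among the most abundant transcripts of these cells. Per length, the median tested member had a mean of 853 RPKM (reads per kilobase of gene length, scaled to the library, the authors' deposited values), against 6.37 for all tested genes. RPS18 (2493 RPKM), RPS2 (2397 RPKM) and RPL41 (2013 RPKM), encoding 2 small-subunit proteins and the shortest large-subunit protein, were the highest. In all, 75 genes were over 100 RPKM and the other 10 were under 60. The paralogues RPL39L (13.3 RPKM), RPL26L1 (30.3), RPL22L1 (38.9) and RPL7L1 (52.3) stood far below the standard RPL39 (1280 RPKM), RPL26 (1171), RPL22 (193) and RPL7 (1375), while RPS27L reached 157 RPKM against 1068 for RPS27. RPL36A was listed at 33.3 RPKM. The lowest tested value was that of RPL21, at 2.32 RPKM and 874 counts over the 11 libraries.

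Among the 4 genes not tested, RPL3L had 0 counts and RPL10L had 60 counts in sum. The sources used here do not say how reads that match several copies were counted, and low values of genes with near-identical copies, such as RPL21, are uncertain for that reason. Another table entry overlapped 38 of the 85 genes, and for 27 of them that entry was a small nucleolar RNA lying in the gene. The standard deviation of log2 CPM within groups had a median of 0.09 over the tested members (0.04 to 0.27).

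The share of counts taken by the ribosomal protein genes was lowest in siGlut1 high glucose. It was 6.35, 6.77 and 6.60% in non-silencing control, 6.43, 6.78 and 6.61% in siGlut1 control, 6.24 and 6.24% in non-silencing high glucose, and 5.42, 5.46 and 5.83% in siGlut1 high glucose. The 3 libraries of siGlut1 high glucose were below the other 8, and the control groups overlapped each other. Group means were 6.57 ± 0.216% (SD, n = 3), 6.61 ± 0.175% (n = 3) and 5.57 ± 0.224% (n = 3) for non-silencing control, siGlut1 control and siGlut1 high glucose. The 2 non-silencing high glucose libraries are too few for an SD to carry weight.

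**Figure D1:**
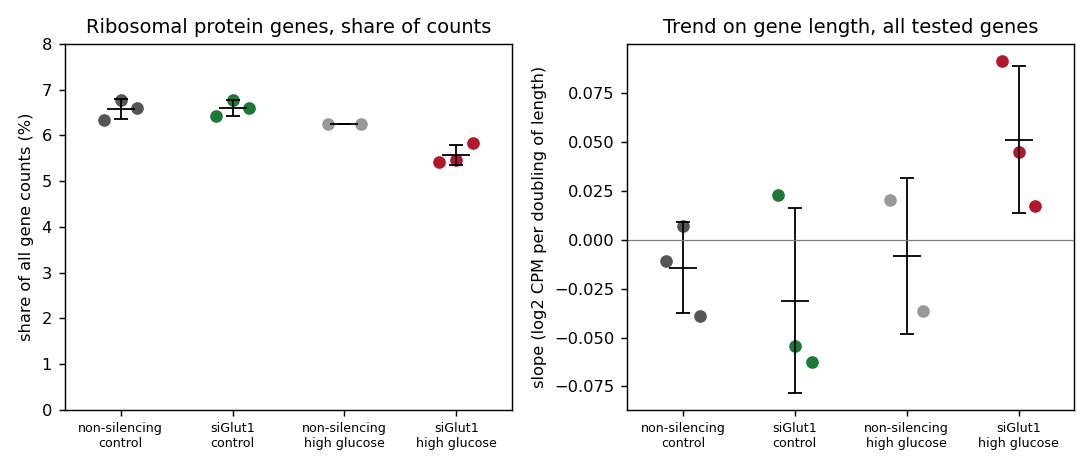
Left, share of all gene counts (%) in ribosomal protein genes, and right, slope of log2 CPM on log2 gene length over all tested genes, by library (points) with group mean and SD (bars). The 3 siGlut1 high glucose libraries lie lowest on the left, at 5.42 to 5.83%, and 2 of them, at 0.0915 and 0.0449, have the steepest rise with length on the right.

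A trend of counts to rise with gene length was greatest in the 2 libraries with the lowest share. These genes are short, with a median listed length of 786 bases among those tested against 3031 for all tested genes. The slope of a library's log2 CPM on length, over all tested genes, was 0.0915, 0.0449 and 0.0170 per doubling in siGlut1 high glucose, and -0.0625 to 0.0230 in the other 8 libraries. The labels name 2 library kits without saying which library used which, and the part of library preparation in this trend was not tested. Each comparison below is therefore given beside 4689 tested genes of like length (490 to 2318 bases), beside 188 of them that also had a like level (210 to 1430 CPM), and after the trend was removed from each library. Within these bounds the genes of like length were not matched to the members, and they ran longer. From 1200 to 2400 bases there were 12 members and 3836 other tested genes, and up to 600 bases 24 and 254.

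With siGlut1 in control glucose, the ribosomal protein genes as a group stood near the level of the non-silencing libraries, and 1 of 81 passed the threshold (edgeR's quasi-likelihood test, adjusted p under 0.05 by the Benjamini-Hochberg method over 14324 genes). That gene was RPL17, which fell. Over all tested genes 1.26% were called lower and 1.7% higher. The median log2 fold change of the members was 0.02, against -0.01 for all tested genes, 0.01 for genes of like length and 0.00 for those of like length and level. It was 0.01 with the length trend removed. In 5 members each siGlut1 library was below each non-silencing one (9.6% of all tested genes), namely RPL5, RPL10A, RPL4, RPS27L and RPL17, and in 11 each was above (11% of all tested genes).

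RPL17 (chr18:47014851-47018935, hg19, 1163 bases), whose protein sits beside the mouth of the exit tunnel, had 247, 261 and 299 CPM in non-silencing control and 168, 156 and 184 in siGlut1 control. In high glucose it had 262 and 263 CPM with the non-silencing siRNA and 151, 157 and 160 with siGlut1. The siGlut1 libraries were all below the non-silencing ones at both glucose levels, with a wide gap between them. Its log2 fold change was -0.67 (SE 0.08, adjusted p = 0.0039, edgeR) in control glucose, a fall of 37.0%, and -0.75 (SE 0.09, adjusted p = 0.0029, edgeR) in high glucose. The interaction term, which compares the siRNA effect at the 2 glucose levels, was -0.09 for RPL17 (SE 0.12, unadjusted p = 0.50, edgeR). The read-through entry RPL17-C18ORF32, which spans the gene, was at 0.70 to 1.33 CPM with log2 fold changes of -0.15 and -0.28, neither called.

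RPL5 and RPL4, called in high glucose below, did not pass the threshold in control glucose. RPL5 (chr1:93297594-93307481, hg19) had 1068, 1198 and 1120 CPM in non-silencing control against 1000, 1005 and 1013 in siGlut1 control (log2 fold change -0.17, adjusted p = 0.16, edgeR). RPL4 (chr15:66791653-66797193, hg19) had 2348, 2541 and 2260 CPM against 2143, 2214 and 2073 (-0.15, adjusted p = 0.21, edgeR). In both genes the 2 groups did not overlap. The highest fitted value was that of RPL21 (0.49, adjusted p = 0.27, edgeR), a gene at 0.94 to 1.74 CPM over the 11 libraries. The stalk gene RPLP0 (chr12:120634503-120639014, hg19) had 2528, 2713 and 2238 CPM against 2446, 2665 and 2450, groups that overlapped (0.02, adjusted p = 0.95, edgeR).

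**Figure D2:**
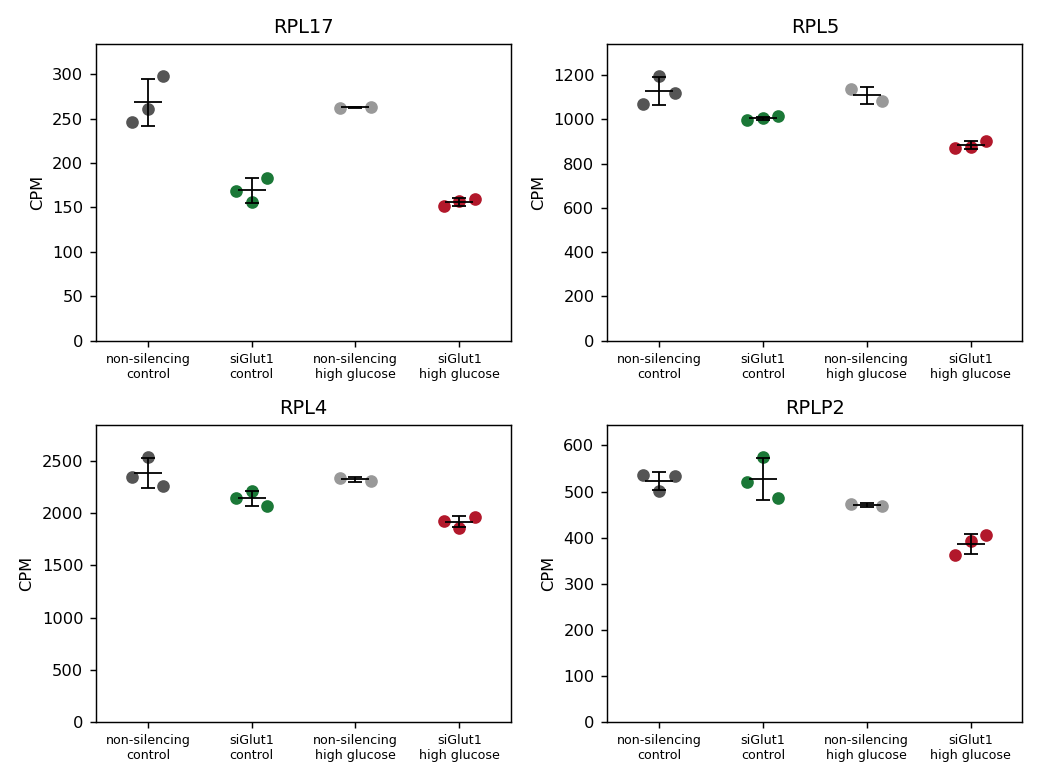
CPM by library for RPL17, RPL5, RPL4 and RPLP2 in the 4 groups (points), with group mean and SD (bars). RPL17 is at 247 to 299 CPM in the non-silencing libraries and at 151 to 184 with siGlut1 at both glucose levels, whereas the other 3 genes are lowest in siGlut1 high glucose.

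In high glucose, 3 of 81 ribosomal protein genes fell past the threshold with siGlut1, RPL17, RPL5 and RPL4, and 0 rose (of all tested genes, 1.64% were called lower and 2.47% higher). All 3 encode large-subunit proteins, as do 50 of the 81 tested members, and a difference between the subunits was not tested. At an unadjusted p under 0.05 there were 18 members (22.2%), all lower. Of all tested genes 20.8% had such a p and 9.5% were lower with it, as were 13.4% of genes of like length and 15.4% of those of like length and level. DESeq2 called 7 members, all lower, among 1308 genes, with 4.1% of the genes it tested called lower. The members' median log2 fold change was -0.13, a difference of -8.90%, against -0.00 for all tested genes, -0.07 for genes of like length and -0.07 for those of like length and level. In narrower length bins the members were not always the lower. Medians of members and other genes were -0.15 and -0.12 up to 600 bases, and -0.08 and -0.16 from 600 to 800. They were -0.14 and -0.09 from 800 to 1200 bases, and -0.17 and -0.05 from 1200 to 2400. Of the 81, 75 (92.6%) had a negative value, against 50.1% of all tested genes and 63.3% of those of like length and level.

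RPL5 had 1136 and 1083 CPM with the non-silencing siRNA in high glucose and 872, 876 and 903 with siGlut1. The groups did not overlap, and the log2 fold change was -0.33 (SE 0.07, adjusted p = 0.023, edgeR), a fall of 20.4%. RPL4 had 2343 and 2308 CPM against 1929, 1863 and 1965. These groups did not overlap either, with a log2 fold change of -0.28 (SE 0.07, adjusted p = 0.044, edgeR), a fall of 17.5%. Both calls ended when the length trend was removed (RPL5 -0.23, adjusted p = 0.112, and RPL4 -0.20, adjusted p = 0.183, edgeR) or when any 1 of the 5 high glucose libraries was left out. That of RPL4 ended also without a filter on low counts (adjusted p = 0.0585, edgeR) and without non-silencing control replicate 1 or siGlut1 control replicate 1 or 2 (adjusted p 0.0620 to 0.0781, edgeR). RPL17 stayed called with the trend removed (-0.66, adjusted p = 0.0038, edgeR), and of the 11 libraries left out in turn, leaving out non-silencing high glucose replicate 3 ended its call (-0.75, adjusted p = 0.0583, edgeR).

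Many members differed between the 2 high glucose groups by less than the threshold required. In 46 of 81 (56.8%) each siGlut1 library was below both non-silencing libraries, against 22% of all tested genes, 29.3% of genes of like length and 34.0% of those of like length and level. In 1 of 81, RPL7L1, each was above, against 22.6% of all tested genes. RPLP2, a stalk protein, had 474 and 468 CPM against 362, 392 and 405 (-0.29, adjusted p = 0.077, edgeR), groups that did not overlap. RPLP0 had 2299 and 2381 CPM against 2157, 2093 and 2317, groups that overlapped (-0.10, adjusted p = 0.58, edgeR). RPL7L1, a paralogue of RPL7 that acts in ribosome assembly, had 69.9 and 69.2 CPM against 70.2, 75.4 and 71.5 and gave the highest value of the set (0.06, adjusted p = 0.75, edgeR). With the length trend removed, the members' median was -0.03, 53 of 81 values were negative, and 19 members lay below in each library (23.5%, against 20.8% of all tested genes treated the same way).

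**Figure D3:**
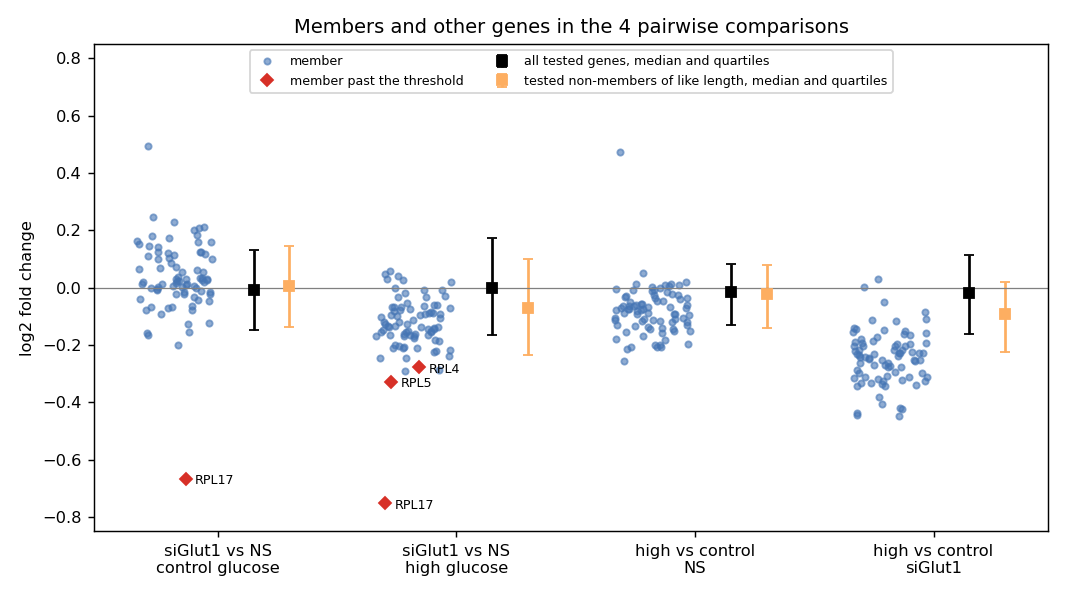
Log2 fold changes of the 81 tested ribosomal protein genes (points, with red diamonds for those past the threshold) in the 4 pairwise comparisons, beside the median and quartiles of all tested genes and of tested non-members of like length. The members centre on 0.02, -0.13, -0.08 and -0.24 from left to right, and RPL17 lies apart from them in both siGlut1 comparisons (horizontal spread within a column has no meaning).

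High glucose with the non-silencing siRNA gave no call among the members with edgeR (0 of 81, as for 0% of all tested genes). At an unadjusted p under 0.05 there were 7 members (8.64%), all lower, where 5.40% of all tested genes had such a p and 3.23% were lower with it. DESeq2 called 0 members. The median log2 fold change was -0.08, against -0.02 for all tested genes, -0.02 for genes of like length and 0.01 for those of like length and level. With the length trend removed it was -0.04. In 17 of 81 members both high glucose libraries were below each control library (9.23% of all tested genes), and in 0 were both above (8.61% of all tested genes). RPL21 gave the highest value (0.47, adjusted p = 0.92, edgeR). The count of 17 depended on single libraries, as did the share over all tested genes. It was 40 without non-silencing control replicate 1 (13.4% of all tested genes), 35 without replicate 3 (25.6%), 31 without high glucose replicate 1 (2579 of 14324) and 27 without high glucose replicate 3 (24.7%). With the length trend removed it was 8 of 81 (9.88%), near the 8.64% of all tested genes.

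The ribosomal protein genes showed their most uniform difference between high and control glucose in cells given siGlut1. No member passed the threshold with edgeR (0 of 81, with 0.014% of all tested genes called), but 79 of 81 values (97.5%) were negative, against 53.4% of all tested genes, 71.0% of genes of like length and 73.4% of those of like length and level. An unadjusted p under 0.05 was reached by 69 members (85.2%), all lower. Of all tested genes 15.2% had such a p and 7.24% were lower with it, as were 11.9% of genes of like length and 17.0% of those of like length and level. DESeq2 called 36 members, all lower, among 432 genes it called in all, with 1.23% of the genes it tested called lower. The members' median log2 fold change was -0.24, a difference of -15.4%, against -0.02 for all tested genes, -0.09 for genes of like length and -0.06 for those of like length and level. In 71 of 81 (87.7%) each high glucose library was below each control library, against 11.7% of all tested genes, 18.2% of genes of like length and 26.6% of those of like length and level. In 0 members was each above, against 10.9% of all tested genes.

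Most genes of both subunits had negative values, and the difference between the subunits was not tested. The median was -0.25 over the 50 large-subunit genes, with 48 negative and 41 not overlapping, and -0.23 over the 31 small-subunit genes, with 31 negative and 30 not overlapping. The stalk genes RPLP2 and RPLP1 were among the lowest. RPLP2 (chr11:809936-812876, hg19) had 520, 575 and 485 CPM in siGlut1 control and 362, 392 and 405 in siGlut1 high glucose (-0.45, SE 0.07, adjusted p = 0.12, edgeR), the lowest value of the 81. RPLP1 had 1157, 1273 and 1098 CPM against 839, 854 and 940 (-0.42, adjusted p = 0.12, edgeR). RPLP0, their partner, had 2446, 2665 and 2450 CPM against 2157, 2093 and 2317 (-0.20, adjusted p = 0.26, edgeR). In each of the 3 stalk genes the groups did not overlap. With the length trend removed, RPLP2, RPLP1 and RPLP0 gave -0.23, -0.20 and -0.09, beside a members' median of -0.08. RPLP2 was then no longer the lowest member.

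The 3 members with the highest RPKM gave these values in the same comparison. RPS18 had 1607, 1567 and 1693 CPM against 1238, 1288 and 1375 (-0.32, adjusted p = 0.14, edgeR). RPS2 had 2480, 2742 and 2364 CPM against 2165, 2047 and 2257 (-0.23, adjusted p = 0.25, edgeR), and RPL41 had 1384, 1427 and 1380 against 1059, 1099 and 1254 (-0.30, adjusted p = 0.16, edgeR). None of the 3 overlapped between the groups, and none passed the threshold. RPL5 (-0.19, adjusted p = 0.21, edgeR) and RPL4 (-0.16, adjusted p = 0.26, edgeR) lay nearer to 0 than the median member here, and RPL17 gave -0.12 (adjusted p = 0.52, edgeR).

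The 10 members that overlapped between siGlut1 control and siGlut1 high glucose included 4 of the 5 tested paralogues, RPL7L1, RPL22L1, RPL39L and RPS27L. RPL7L1 had 76.2, 65.6 and 70.9 CPM against 70.2, 75.4 and 71.5 (0.03), the highest value of the set, and RPL22L1, a paralogue of the RNA-binding protein RPL22, had 70.6, 63.9 and 90.7 against 71.3, 84.2 and 69.8 (0.00). RPL39L gave -0.05 and RPS27L -0.09, beside -0.31 for RPL39 and -0.23 for RPS27. RPL26L1 was the exception, with 25.6, 24.6 and 25.5 CPM against 20.8, 21.4 and 21.2 (-0.26), beside -0.29 for RPL26. The other members that overlapped were RPL21, RPL22, RPL17, RPL13A, RPL3 and RPL10. Whether paralogues differ from standard members was not tested, and 4 of them are among the members with the fewest counts.

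**Figure D4:**
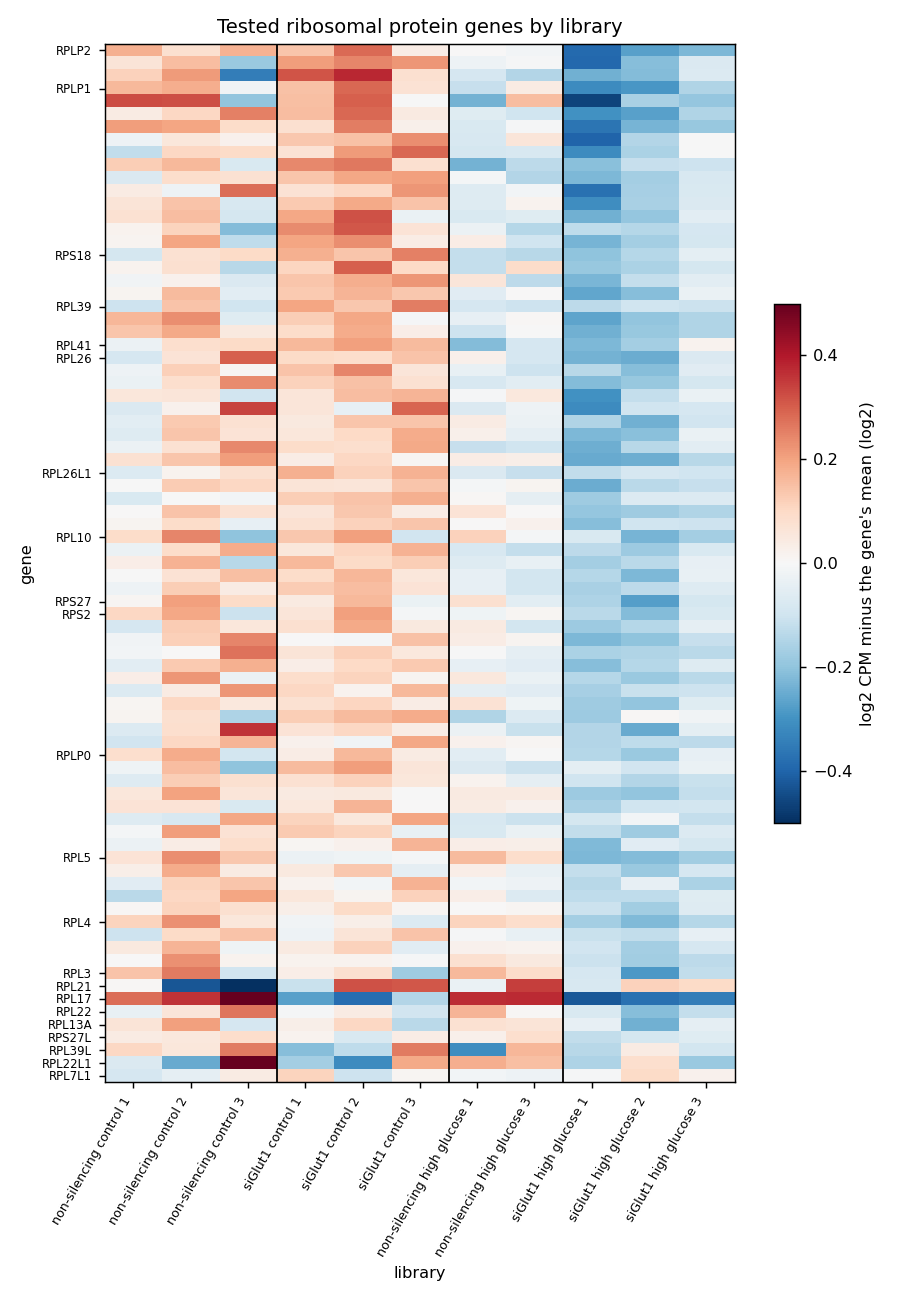
Log2 CPM of each of the 81 tested ribosomal protein genes minus its mean over the 11 libraries (colour, limited to ±0.5), with genes ordered by their log2 fold change between high and control glucose with siGlut1, lowest at the top, and names given for some of the genes. The 3 siGlut1 high glucose columns are blue for most genes, RPL17 is low in the 6 siGlut1 columns, and the rows at the bottom hold RPL7L1, RPL22L1, RPL39L and RPS27L.

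The values also varied with gene length. Among the 24 members of up to 600 bases the median log2 fold change between high and control glucose with siGlut1 was -0.30, and among the 254 other tested genes of that length it was -0.21. From 600 to 800 bases it was -0.24 over 17 members and -0.16 over 249 other genes. From 800 to 1200 bases it was -0.20 over 20 members and -0.14 over 814 other genes. From 1200 to 2400 bases it was -0.21 over 12 members and -0.07 over 3836 other genes, whereas the 6 members of 2400 to 4800 bases were at -0.21 against -0.01 for 5709 other genes. Above 4800 bases the 2 members were at -0.36 and 3381 other genes at 0.11. Whether the listed length of these 2 members is that of the transcripts counted was not tested. With each library's length trend removed, the members' median was -0.08, with 70 of 81 values negative, against 0.00 for genes of like length and 0.03 for those of like length and level. The count of members that did not overlap was then 29 of 81 (35.8%), against 9.34% of all tested genes treated the same way, and 0 were called by edgeR. Replicate 3 of both control groups stood furthest from the other libraries of their groups (mean chi-square per entry 22.3 to 49.1, against 9.74 and 10.9 between replicates 1 and 2). Leaving out both was a choice made after seeing the data. Without these replicates edgeR called 26 members, all lower, among 734 genes, with 2.38% of all genes tested there called lower. Without them 75 of 81 members did not overlap, against 23.5% of all tested genes. In each fit that left out 1 of the 11 libraries, edgeR called 0 members.

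**Figure D5:**
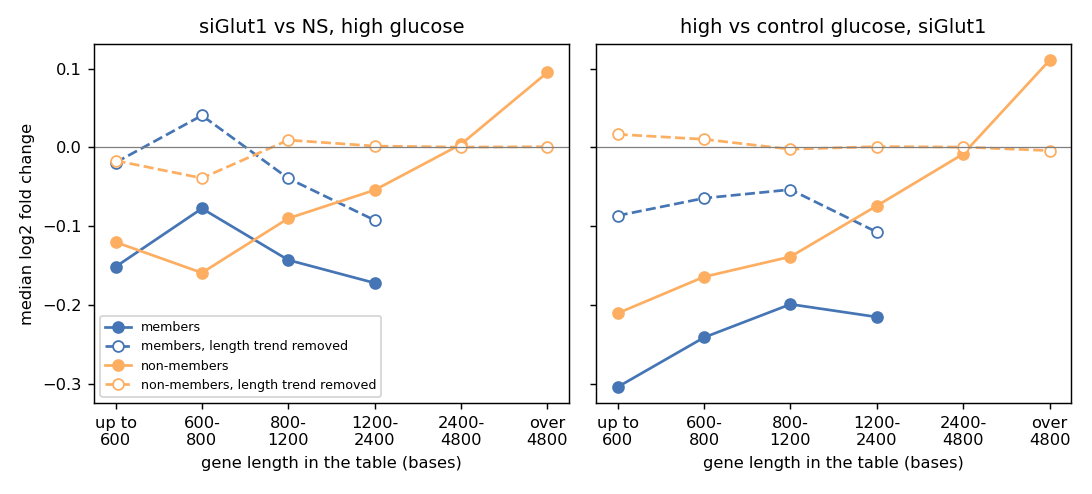
Median log2 fold change of members (blue) and other tested genes (orange) by listed gene length in bases, for siGlut1 against non-silencing siRNA in high glucose (left) and high against control glucose with siGlut1 (right), as fitted (filled) and with the length trend removed (open), without bins of fewer than 12 genes. On the right the members lie below the other genes in each bin drawn, before removal (-0.30 against -0.21 up to 600 bases) and after.

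The interaction of siRNA and glucose was called in 0 members by edgeR (0% of all tested genes) and in 0 by DESeq2. At an unadjusted p under 0.05 there were 12 members (14.8%), all negative, where 2.75% of all tested genes had such a p and 0.88% were negative with it. The median was -0.16, against 0.00 for all tested genes, -0.07 for genes of like length and -0.06 for those of like length and level. Negative values were found in 79 of 81 members, in 68.2% of genes of like length and in 81.4% of those of like length and level. With the length trend removed the median was -0.04. The comparisons share libraries, so their values are not independent: each group enters 2 of the 4 pairwise comparisons and the interaction. The effect of glucose is thus not shown to differ between the siRNAs for any single member.

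Other genes of the ribosome pathway showed few calls. The 4 ribosomal proteins that were listed beside the name rule, RPL36AL and GNB2L1 among them, had 0 calls of 4 with edgeR in each of the 5 comparisons, with at most 2 at an unadjusted p under 0.05, and a median of -0.12 between high and control glucose with siGlut1 (-0.02 with the length trend removed). Of 22 translation factors and other TOP transcripts 0 were called by edgeR, with up to 5 at an unadjusted p under 0.05 in a comparison, beside the shares of 20.8% and 15.2% of all tested genes given above. Their median was -0.10 between the siRNAs in high glucose and -0.10 between high and control glucose with siGlut1. Genes within the members' length range (490 to 2318 bases) were at -0.07 and -0.09. No set was matched to the lengths of these 22 genes, and EEF1A1 (3512 bases) and EEF2 (3158 bases) lie outside that range. Tested non-members of 2400 to 4800 bases were at 0.00 and -0.01. Both medians of the 22 genes were -0.03 with the length trend removed. EEF1A1, the factor that brings aminoacyl-tRNA to the ribosome, gave 0.01 (adjusted p = 0.98, edgeR) and -0.19 (adjusted p = 0.33, edgeR) in these comparisons, and EEF2, the translocation factor, gave 0.04 and -0.18.

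Among 50 ribosome assembly factors 1 was called. NOLC1, a nucleolar chaperone of small nucleolar ribonucleoproteins, rose with siGlut1 in high glucose, from 101 and 87.2 CPM to 127, 158 and 149 (log2 fold change 0.62, adjusted p = 0.042, edgeR), a call that ended with the length trend removed (adjusted p = 0.0520, edgeR) and without any 1 of the 5 high glucose libraries or replicate 1 of either control group (adjusted p 0.0518 to 0.278, edgeR), with log2 fold changes of 0.51 to 0.74 over these settings. Of 14 RNA polymerase I genes, which make ribosomal RNA, 0 were called by edgeR, with at most 4 at an unadjusted p under 0.05, in comparisons where 20.8% and 15.2% of all tested genes had such a p. Of 20 genes of growth control by MYC and mTORC1, 1 fell in control glucose, and 1 rose and 1 fell in high glucose with siGlut1. These counts, and that of the assembly factors, stand beside 1.26% of all tested genes called lower and 1.7% higher in control glucose, and 1.64% lower and 2.47% higher in high glucose.

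MTOR, the kinase of mTORC1, had 128, 128 and 116 CPM in non-silencing control and 98.2, 82.1 and 87.2 in siGlut1 control, and fell (-0.48, adjusted p = 0.011, edgeR, and 0.0754 in a fit of the 2 groups alone). In high glucose its difference between the siRNAs was -0.16 (adjusted p = 0.32, edgeR). LARP1, which binds TOP transcripts, rose with siGlut1 in high glucose from 334 and 315 CPM to 427, 437 and 422 (0.40, adjusted p = 0.028, edgeR), a call that ended without any 1 of the 5 high glucose libraries (adjusted p 0.0716 to 0.216, edgeR). SESN1, an inhibitor of mTORC1 under stress, fell there from 51.1 and 49.2 CPM to 42.7, 34.4 and 38.2 (-0.38, adjusted p = 0.047, edgeR), a call that ended in 12 alternatives, 8 of which left out 1 library (adjusted p up to 0.263, edgeR). Of 4 genes of the p53 and MDM2 list 0 were called by edgeR, and 0 had an unadjusted p under 0.05 in any of the 5 comparisons. CDKN1A, a p53 target, gave 0.13 with siGlut1 in control glucose (adjusted p = 0.49, edgeR) and -0.00 in high glucose, and MDM2 gave 0.07 and 0.16.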

How the data were processed

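RNA sequencing of 12 HBMEC samples in 4 groups was used as 1 deposited table of gene counts, with RPKM values that the authors computed per kilobase of a listed gene length. Per the submitters' processing notes, reads were placed on hg19 and DESeq2 was used. For the aligner, counter, strand setting and annotation the sources used here give nothing. In 11 columns each deposited count was even, and 1 column, a mean of the other 2 of its group, was left out. Entries on the Y chromosome and 1 X-linked non-coding gene (124 in all) were not used, which left 23274.

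Counts of 11 libraries were scaled by TMM (factors 0.975 to 1.03) and filtered by filterByExpr, which left 14324 genes. These were fitted in 1 model of 4 groups with edgeR 4.0.16 (quasi-likelihood F test, two-sided, Benjamini-Hochberg, threshold 0.05) in R 4.3.3, and with DESeq2 1.42.0 as an alternative. CPM uses TMM-scaled totals. Length trends were loess fits (limma 3.58.1, span 0.3) of each library's log2 CPM on log2 length, removed as offsets. Genes of like length or level lie between the 10 and 90 percentiles of tested members. Values of some genes are not reported here. The scripts were tested on simulated data. The members and lists were chosen with earlier results of these data known. Genes named are RPL4, RPL5, RPLP0, members called, the highest and lowest by log2 fold change and by RPKM, paralogue pairs, and per pathway list the called genes or the 2 with most counts. Others named to complete a count of 5 or fewer or to describe the stalk were chosen after their values were seen. Start sequences come from RefSeq, and 67 of 85 members matched by symbol.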

Additional observations from a re-analysis of the deposited data

How the results depend on the processing

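Directions of the members' medians held in the alternatives run, except that the median for siGlut1 in control glucose was -0.00 without non-silencing control replicate 1 (highest 0.06 over single-library omissions). The other medians ranged from -0.16 to -0.10 (siGlut1 in high glucose), -0.104 to -0.0264 (high glucose, non-silencing), -0.27 to -0.21 (high glucose, siGlut1) and -0.19 to -0.13 (interaction), and the called members from 1 to 2 and from 0 to 4 with siGlut1 in control and in high glucose. The second call in control glucose was RPL39, without non-silencing control replicate 2, while DESeq2 called 2 there (RPL34 higher and RPL17 lower). With siGlut1 in high glucose the call count was 7 with DESeq2, 7 with the averaged column included, 6 in a fit of the 2 groups alone, 7 without both control replicates 3 and 1 (RPL17) with the length trend removed, where the median was -0.0308. It was 1 without non-silencing high glucose replicate 1 or any siGlut1 high glucose library, and 0 without non-silencing high glucose replicate 3. For high glucose with siGlut1 it was 36 with DESeq2, 1 (RPLP2) with the averaged column and 26 without both control replicates 3, and with the length trend removed the median was -0.0841 and that of the interaction -0.0369. The cause of these changes was not tested.

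The labels do not say what a replicate number marks, and whether the numbers pair the samples was not settled. Correlations of same-numbered libraries were -0.25 to 0.53, and those of differently numbered ones -0.44 to 0.26. Between the 2 control groups the same-numbered values were 0.09, 0.35 and 0.53. With the replicate number as a block, 1 and 2 members were called with siGlut1 in control and high glucose and 0 elsewhere (the calls of RPL4, adjusted p = 0.0502, and SESN1, adjusted p = 0.0612, ended), with medians of 0.03, -0.15, -0.06, -0.24 and -0.16 for the interaction. With the block and the length trend removed, 1 member was called with siGlut1 in high glucose, and the medians were -0.036 there, -0.0288 (high glucose, non-silencing), -0.0783 (high glucose, siGlut1) and -0.0461 (interaction).

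Counts of members that did not overlap, tried under alternatives chosen after seeing the data, ranged over single omissions from 5 to 9 and 46 to 68 (siGlut1, control and high glucose), 19 to 40 and 71 to 75 (high glucose, non-silencing and siGlut1). With the length trend removed they were 4, 19, 8 and 29 (9.86, 20.8, 8.64 and 9.34% of all tested genes), and without both control replicates 3 they were 8, 35 and 75 (22.7, 25.6 and 23.5%) in the 3 comparisons with a control group.

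Values near 0 changed sign for single genes. For high glucose with the non-silencing siRNA, RPL17 was 0.0482 without both control replicates 3 (-0.0811 to 0.052 over single omissions), RPL5 was 0.0029 with the length trend removed and 0.0098 with the block added (-0.0641 to 0.0317), and RPL4 ranged from -0.0715 to 0.0244. For high glucose with siGlut1, RPL17 was 0.0011 with the length trend removed and 0.0038 with the block added, and RPL7L1 ranged from -0.0168 to 0.0876. RPLP0 with siGlut1 in control glucose was -0.0491 without both control replicates 3 (-0.056 to 0.0836). Depth limits RPL21 most, with 874 counts in all, and 1 group has 2 libraries, which limits each comparison it enters.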
